A study of Mus musculus with 8 samples.

Results

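The genes described here are those of the COUP-TF nuclear receptors, Nr2f1, Nr2f2 and Nr2f6, of the related receptor TLX (Nr2e1), and the long non-coding RNA gene B130024G19Rik, which lies beside Nr2f2. They were chosen by name, with their difference between genotypes in these arrays already known, so the comparison of genotypes is given for them as a description and no test of it is offered as support. All probe sets that carry one of these names as their only gene symbol were taken. Of the 5 genes, 4 had such a probe set and Nr2e1 was not analysed here. The 4 genes had 7 probe sets among the 22626 tested: 3 for Nr2f2, 2 for Nr2f6 and 1 each for Nr2f1 and B130024G19Rik.

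COUP-TF proteins are orphan nuclear receptors that bind DNA as dimers, mostly at repeats of the sequence AGGTCA, and act mainly as repressors of transcription. They compete with retinoid receptors for such sites. In the mouse, Nr2f1 (COUP-TFI) sets up the areas of the cerebral cortex, Nr2f2 (COUP-TFII) marks veins and interneurons born in the caudal ganglionic eminence, and Nr2f6 (EAR2) is needed for the noradrenergic locus coeruleus. Nr2e1 keeps adult neural stem cells undifferentiated.

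RNA was measured in whole brain of BSKO mice, which lack SIRT1, a protein deacetylase, specifically in the brain, and of their WT littermates. All were C57/B6 males aged 3 months. Each genotype had 4 biological replicates, each on its own Affymetrix Mouse430A_2 array. The labels used here do not name the Cre line or the deleted exons, and animals per sample are not stated beyond the word replicate. The deposited values are on the log2 scale and were centred for each probe set on its median over the 8 arrays, so a value tells how an array compares with the others and not how strongly a gene is expressed. For this reason the tissue could not be checked by the level of brain markers, and levels of different genes cannot be compared. Where all BSKO values lie below all WT values, this centring makes the highest BSKO value and the lowest WT value equal in size with opposite signs.

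BSKO 2 stood apart from the other arrays. The SD of its values over all tested probe sets was 0.831, against 0.222 to 0.314 on the other BSKO arrays and 0.150 to 0.220 on the WT arrays. Its 5' control probe set for beta-actin was -2.44 from the 3' one, where the other 7 arrays lay between -0.104 and 0.489. Most differences below are therefore also given without BSKO 2. Sirt1 itself, on probe set 1418640_at, had 0.08, -1.46, -0.20 and -0.06 on BSKO 1 to 4, against 0.00, 0.00, 0.08 and 0.29 on WT 1 to 4 (difference -0.50, SE 0.31, limma adjusted p = 0.549). Without BSKO 2 the Sirt1 difference was -0.15 (limma adjusted p = 0.428). The part of Sirt1 that this probe set covers was not given, so the labels are neither checked nor contradicted by it.

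Nr2f2 and B130024G19Rik are annotated as neighbours that run in opposite directions and overlap at their 5' ends. Their RefSeq starts lie 1363 bases apart on chromosome 7 of GRCm38.p6, and the start of the non-coding RNA lies within the annotated Nr2f2 gene. The 250 bases before each start are shown because both RNAs were lower in BSKO brain. Capitals mark CCAAT or its complement ATTGG, the one searched motif present in either window.
Nr2f2, chr7:70366747-70366996, minus strand: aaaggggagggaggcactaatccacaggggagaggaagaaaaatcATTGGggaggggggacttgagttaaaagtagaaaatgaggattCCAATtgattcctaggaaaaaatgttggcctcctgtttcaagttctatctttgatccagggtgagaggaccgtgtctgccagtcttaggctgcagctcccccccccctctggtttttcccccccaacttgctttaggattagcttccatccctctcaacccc
B130024G19Rik, chr7:70365133-70365382, plus strand: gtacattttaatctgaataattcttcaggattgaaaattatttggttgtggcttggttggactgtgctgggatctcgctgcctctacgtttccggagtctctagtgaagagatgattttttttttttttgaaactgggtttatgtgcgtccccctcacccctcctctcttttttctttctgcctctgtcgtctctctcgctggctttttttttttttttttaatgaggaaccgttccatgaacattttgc

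The windows do not overlap in the genome. CCAAT occurred at 2 places before Nr2f2 and at none before B130024G19Rik, and 33.8% of the 32851 RefSeq windows of this length held it on either strand. The receptor half-site AGGTCA, searched on both strands, was in none of the 6 windows of the 5 genes and in 14.0% of all windows. The GC box GGGCGG occurred at 7 places before Nr2f6 and at 1 place before the first of the 2 listed starts of Nr2f1, and in 32.7% of all windows. TATAAA was in none of the 6 windows and in 12.4% of all. The G and C content was 50% before Nr2f2 and 40.4% before B130024G19Rik, close to or below the median of 52.4%, against 72% before the first Nr2f1 start and 82.4% before Nr2f6.

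Nr2f2 was lower on BSKO 1, BSKO 3 and BSKO 4 than on every WT array by all 3 of its probe sets. On probe set 1416159_at the values were -0.45, -0.53, -0.96 and -0.42 on BSKO 1 to 4, against 0.46, 0.42, 0.77 and 0.61 on WT 1 to 4. All 4 BSKO arrays were low here, and the genotypes did not overlap. The mean was -0.59 ± 0.25 in BSKO and 0.56 ± 0.16 in WT (SD, n = 4 each), a difference of -1.15 (SE 0.15), or 2.22-fold lower. Without BSKO 2 the difference was -1.17 (SE 0.15). In bulk tissue, fewer cells that express a gene and less RNA in each such cell cannot be told apart.

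Probe set 1416160_at had -0.74, -0.07, -1.39 and -1.05 on BSKO 1 to 4, against 0.07, 0.25, 0.32 and 0.14 on WT 1 to 4. The genotypes did not overlap, but BSKO 2 came within 0.136 of the lowest WT array. The difference was -1.01 (SE 0.25) with 8 arrays and -1.25 (SE 0.15) without BSKO 2. Probe set 1416158_at had -0.72, 0.07, -1.43 and -0.84 on BSKO 1 to 4, against -0.02, 0.02, 0.05 and 0.07 on WT 1 to 4. BSKO 2 lay among the WT arrays here, so the genotypes overlapped. The difference was -0.76 (SE 0.27) with 8 arrays and -1.03 (SE 0.16) without BSKO 2.

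**Figure D1:**
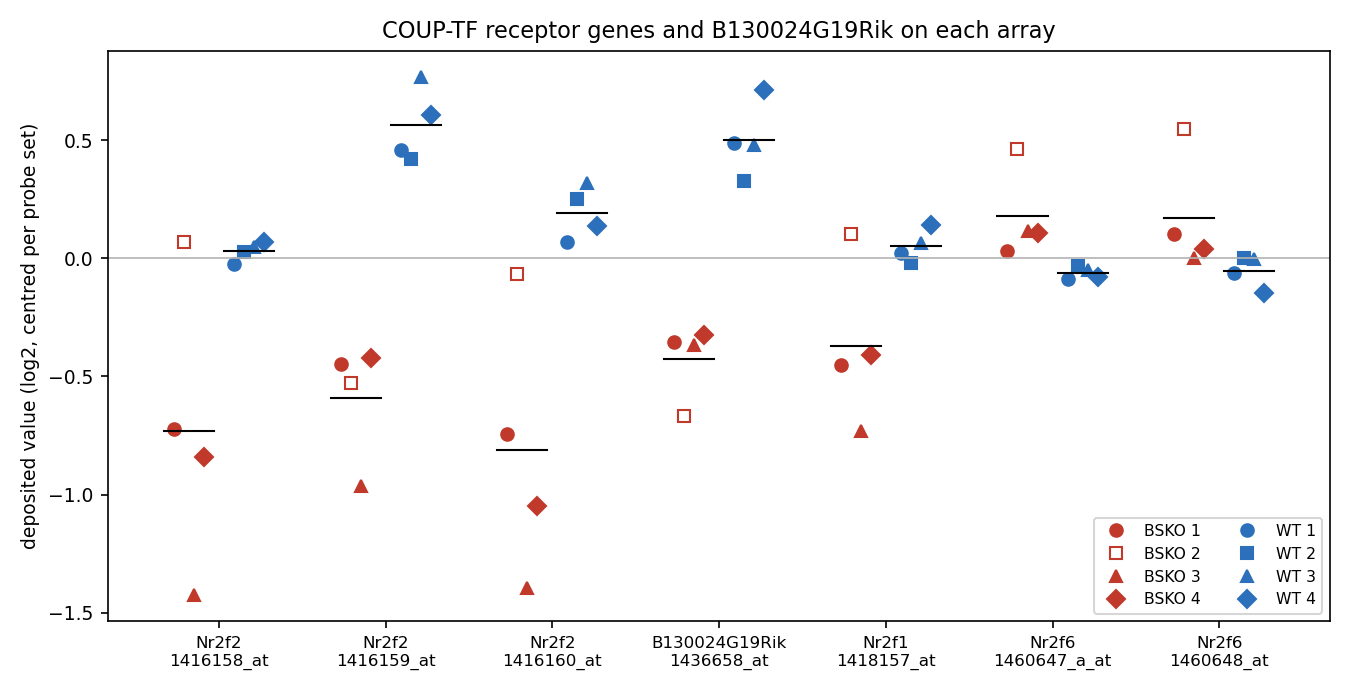
Deposited values (log2, centred per probe set, vertical axis) of the 7 probe sets on each array, with BSKO in red left of WT in blue, BSKO 2 as an open square and black lines at the means of 4 arrays. The Nr2f2, B130024G19Rik and Nr2f1 values of BSKO 1, 3 and 4 all lie below the WT values, while the open square changes place between probe sets.

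The 3 Nr2f2 probe sets were compared within each array, as the distance from the WT mean of the same probe set. On BSKO 1 the distances were -0.75, -1.01 and -0.94 for 1416158_at, 1416159_at and 1416160_at. On BSKO 3 they were -1.46, -1.53 and -1.59, and on BSKO 4 -0.87, -0.98 and -1.24. The probe sets thus gave like values on these arrays, with BSKO 3 the lowest by each of them. On BSKO 2 the distances were 0.04, -1.09 and -0.26, so that 1416159_at placed Nr2f2 as low as on BSKO 1 and BSKO 4, while 1416158_at placed it at the WT mean. The low 5' to 3' ratio of the control RNAs on BSKO 2 moved with this disagreement, and its part in it was not tested, since the positions of the probe sets in the transcript were not given. As the mean of its 3 probe sets, Nr2f2 had -0.71 ± 0.45 in BSKO and 0.26 ± 0.09 in WT (SD, n = 4 each), a difference of -0.97, which was -1.15 without BSKO 2.

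B130024G19Rik, a non-coding RNA for which no role is given here, was low on all BSKO arrays. Its probe set 1436658_at had -0.35, -0.67, -0.37 and -0.33 on BSKO 1 to 4, against 0.49, 0.33, 0.48 and 0.71 on WT 1 to 4. The genotypes did not overlap, and the mean was -0.43 ± 0.16 in BSKO and 0.50 ± 0.16 in WT (SD, n = 4 each). The difference of -0.93 (SE 0.12) corresponds to a level 1.91-fold lower, and it was -0.85 (SE 0.09) without BSKO 2. BSKO 1, 3 and 4 lay within 0.0412 of each other for this RNA, whereas the Nr2f2 probe sets put BSKO 3 0.51 to 0.70 below BSKO 1. The neighbours were alike in the sign of the difference. They were unlike on BSKO 3, and on BSKO 2 by Nr2f2 probe sets 1416158_at and 1416160_at. By 1416159_at, Nr2f2 on BSKO 2 lay -1.09 from its WT mean, against -1.17 for B130024G19Rik.

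Nr2f1, like Nr2f2 on 1416158_at and 1416160_at, had its lowest BSKO value on BSKO 3 and its highest on BSKO 2. Its probe set 1418157_at had -0.45, 0.10, -0.73 and -0.41 on BSKO 1 to 4, against 0.02, -0.02, 0.06 and 0.14 on WT 1 to 4. BSKO 2 was above 3 of the 4 WT arrays, and the other BSKO arrays were below all of them. The mean was -0.37 ± 0.35 in BSKO and 0.05 ± 0.07 in WT (SD, n = 4 each), a difference of -0.42 (SE 0.17). Without BSKO 2 the genotypes no longer overlapped and the difference was -0.58 (SE 0.09), or 1.50-fold lower.

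Nr2f6 differed the other way and by less. Probe set 1460647_a_at had 0.03, 0.46, 0.12 and 0.11 on BSKO 1 to 4, against -0.09, -0.03, -0.05 and -0.08 on WT 1 to 4. All BSKO arrays were higher, and the difference was 0.24 (SE 0.11) with 8 arrays and 0.15 (SE 0.06) without BSKO 2. Probe set 1460648_at had 0.10, 0.55, 0.00 and 0.04 on BSKO 1 to 4, against -0.06, 0.00, 0.00 and -0.15 on WT 1 to 4. BSKO 3 and WT 2 overlapped by 0.00028, so that this probe set was just inside the overlap. Its difference was 0.23 (SE 0.14) with 8 arrays and 0.10 (SE 0.07) without BSKO 2.

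**Figure D2:**
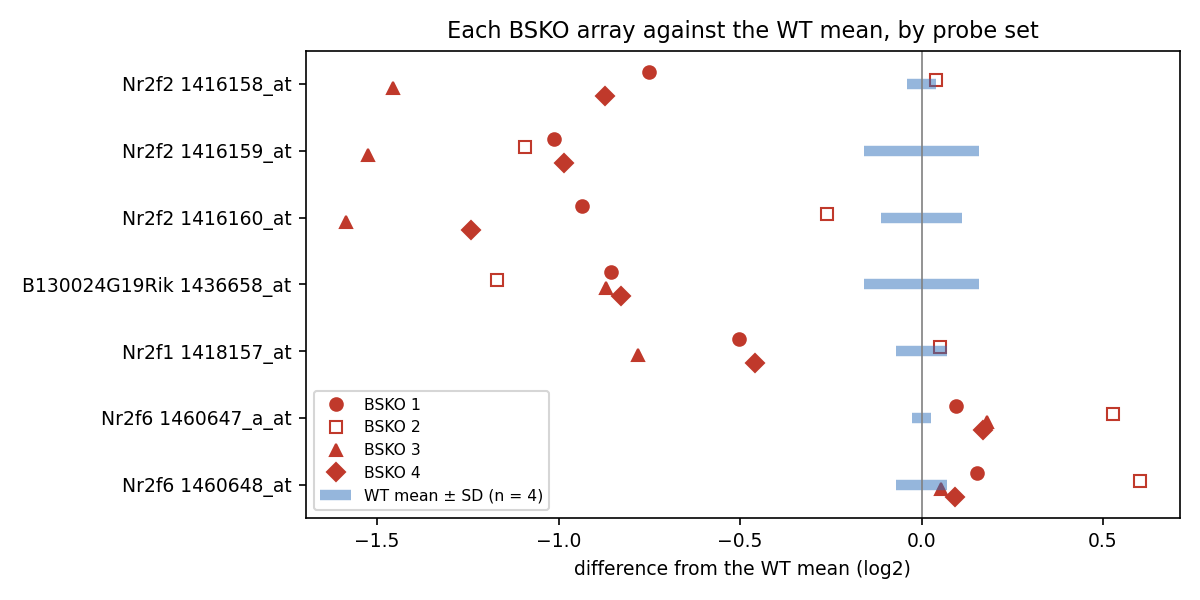
Distance of each BSKO array (red symbols, BSKO 2 open) from the mean of the 4 WT arrays on the log2 scale (horizontal axis), by probe set, with the SD of the WT arrays as a blue bar around 0. BSKO 2 lies between -1.17 for B130024G19Rik and 0.60 for Nr2f6, while BSKO 1, 3 and 4 keep to one side of the WT mean for every probe set.

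With 8 arrays none of the 7 probe sets passed a Benjamini-Hochberg adjusted p of 0.05 in limma, where 7 of all 22626 did, or 0.0309%. At an unadjusted p under 0.05 there were 5 of the 7, against 10.8% of all probe sets. The genotypes did not overlap for 4 of the 7, with 3 lower (6.66% of all probe sets were) and 1 higher (5.67% were). Without BSKO 2, the 3 of Nr2f2 and those of B130024G19Rik and Nr2f1 passed, all lower, where 1.14% of all probe sets passed as lower. The genotypes then did not overlap for 5 lower (10.3% of all) and 1 higher (9.21%). As the genes were chosen with this contrast known, nothing is read from these counts.

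Among the arrays numbered 1 and 2, and among those numbered 3 and 4, BSKO lay on the same side of WT for all 7 probe sets. B130024G19Rik differed by -0.92 within replicates 1 and 2 and -0.94 within 3 and 4. In the same order, the Nr2f2 difference was -0.93 and -1.38 on 1416159_at, -0.56 and -1.45 on 1416160_at, and -0.33 and -1.19 on 1416158_at. Nr2f1 had -0.17 and -0.67. The smaller values, from replicates 1 and 2, include BSKO 2, and BSKO 1 alone lay -0.89 from the mean of WT 1 and WT 2 on 1416159_at, -0.90 on 1416160_at, -0.72 on 1416158_at and -0.45 for Nr2f1.

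The nearest 3 genes with a probe set before it in genome order were Ttc23, Igf1r, the receptor of insulin-like growth factor, and Arrdc4, an arrestin-domain protein. Their 5 probe sets differed by between -0.57 and 0.27 with 8 arrays (limma adjusted p of 0.587 or more) and by between -0.10 and 0.15 without BSKO 2 (0.675 or more), and none passed. After B130024G19Rik came Fam174b, St8sia2, which makes polysialic acid on the neural adhesion molecule NCAM, and Slco3a1, an organic anion transporter. Probe set 1420377_at of St8sia2 had 0.91, 0.99, 0.30 and 0.29 on BSKO 1 to 4, against -0.59, -0.66, -0.29 and -0.31 on WT 1 to 4. It was higher in BSKO by 1.09 with 8 arrays (SE 0.19, limma adjusted p = 0.111) and by 0.97 without BSKO 2 (adjusted p = 0.0409). The second St8sia2 probe set, 1449843_at, missed the threshold in both fits (0.62, adjusted p = 0.472, and 0.38, adjusted p = 0.339). The single Fam174b probe set differed by -0.18 (adjusted p = 0.603) with 8 arrays and by -0.06 (adjusted p = 0.725) without BSKO 2. For all 3 Slco3a1 probe sets every BSKO array lay below every WT array, as for 6.66% of all probe sets. They differed by -0.24, -0.56 and -0.55 with 8 arrays (adjusted p of 0.260 to 0.414) and by -0.28, -0.45 and -0.36 without BSKO 2 (0.0821 to 0.149), and missed the threshold in both fits.

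The genes most like Nr2f2 were taken by the root mean square difference of their deposited values from those of 1416159_at, among 20379 probe sets with 1 gene symbol. Over 8 arrays they were Kctd4, a potassium channel tetramerisation domain gene (0.147), the calmodulin-dependent kinase gene Camk2d (0.170), Hsd17b11 (0.180), Egfl6 (0.192) and Dach2 (0.194). B130024G19Rik was at rank 12 (0.249), and the other Nr2f2 probe sets were at ranks 306 and 1148. Over 7 arrays without BSKO 2, Pter (0.134), Kctd4 (0.155), Camk2d (0.164), Hsd17b11 (0.164) and Dpyd (0.180) led. The centring leaves a different offset in each probe set. When each was first set to a WT mean of 0, a step added after seeing the data, the other Nr2f2 probe sets came to ranks 2 and 3 over the 7 arrays (0.138 and 0.142), next to Pter (0.120), and B130024G19Rik to rank 27 (0.285). Over all 8 arrays they stood at ranks 28 and 100, and B130024G19Rik at rank 12.

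The genes most like B130024G19Rik over 8 arrays were Moxd1, a monooxygenase related to dopamine beta-hydroxylase (0.101), the neurotrophin gene Bdnf (0.149), the chemokine gene Ccl6 (0.153), Apaf1 of the apoptosome (0.164) and Dck, deoxycytidine kinase (0.167). Without BSKO 2 they were Moxd1 (0.108), Nabp1 (0.145), the serotonin receptor gene Htr2c (0.145), Cpd (0.149) and Car4 (0.151). Nr2f2 was farther away, with its nearest probe set at rank 56 over 8 arrays and at rank 160 without BSKO 2. With each probe set first set to a WT mean of 0, Moxd1 led over 8 arrays and Sh3rf1 without BSKO 2. The nearest Nr2f2 probe set was then 1416159_at at rank 73 over 8 arrays and 1416158_at at rank 135 without BSKO 2. On this scale Nr2f1 was at ranks 1396 and 62 in the same order, so it was nearer than Nr2f2 only without BSKO 2. On the deposited values Nr2f1 was farther than Nr2f2 both times, at ranks 3616 and 1687. All of these genes share the 8 arrays and the sign of the difference, so the order describes these arrays only.

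Genes related to COUP-TF receptors or TLX were read from 4 lists, with 35 measured genes of 42. The lists were other NR2 receptors, retinoid receptors and enzymes, corepressors and partners of COUP-TF and TLX, and described targets of either. Among the 35 genes the counts were as follows. With 8 arrays none had a probe set past the limma threshold (5 of all 12393 genes did, 0.0403%), and 8 had one at an unadjusted p under 0.05, against 15.4% of all genes. Without BSKO 2 there were 3 past the threshold, all lower in BSKO. Of all genes, 2.40% had a probe set past it in either direction. At an unadjusted p under 0.05 there were 15, against 27.1% of all genes. The median difference over all genes was 0.03 with 8 arrays and 0.01 without BSKO 2.

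Retinoic acid is the signal that COUP-TF receptors are known to oppose, and its enzymes held 2 of the 3 called genes. Cyp26a1, which degrades retinoic acid, had -1.005, -0.93, -0.51 and -0.45 on BSKO 1 to 4, against 0.45, 0.88, 1.23 and 0.68 on WT 1 to 4. The genotypes did not overlap. The Cyp26a1 difference was -1.54 (limma adjusted p = 0.0652) with 8 arrays and -1.47 (adjusted p = 0.0231) without BSKO 2. Aldh1a2, which makes retinoic acid and is a gene of the meninges in adult brain, had -0.98, -0.23, -0.68 and -0.45 on BSKO 1 to 4, against 1.03, 0.78, 0.23 and 0.27 on WT 1 to 4. All BSKO arrays were lower. The Aldh1a2 difference was -1.16 (adjusted p = 0.148) with 8 arrays and -1.28 (adjusted p = 0.0375) without BSKO 2. Of the 9 measured genes in this list, 5 were higher and 4 lower by their means, with a median of 0.23 with 8 arrays and 0.09 without BSKO 2. The other synthesising enzymes, Aldh1a1 (-0.84, adjusted p = 0.405, and -0.63, adjusted p = 0.254 without BSKO 2) and Aldh1a3 (0.34, adjusted p = 0.434, and 0.23, adjusted p = 0.204 without BSKO 2), missed the threshold.

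Of 9 measured genes described elsewhere as regulated by COUP-TF receptors or TLX, 3 were higher and 6 lower with 8 arrays (median -0.24), and 4 were higher and 5 lower without BSKO 2 (median -0.17). Angpt1, a vascular growth factor, had -0.50, 0.57, -0.59 and -0.87 on BSKO 1 to 4, against 0.02, 0.40, 0.19 and -0.02 on WT 1 to 4. BSKO 2 was the highest array and the other BSKO arrays were the lowest. The Angpt1 difference was -0.49 (limma adjusted p = 0.538) with 8 arrays and -0.80 (adjusted p = 0.0319) without BSKO 2. Nrp2, a semaphorin receptor, missed the threshold (-0.62, adjusted p = 0.295, and -0.45, adjusted p = 0.0643 without BSKO 2), as did Gfap, an astrocyte filament gene described as a TLX target (-0.77, adjusted p = 0.153, and -0.68, adjusted p = 0.0533). Wnt7a differed by 0.18 (adjusted p = 0.533) with 8 arrays and by 0.14 (adjusted p = 0.398) without BSKO 2.

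Of the 7 measured receptors of the same NR2 subfamily, 5 were higher and 2 lower, with a median of 0.13 with 8 arrays and 0.08 without BSKO 2, and none was called in either fit. Rxrg, a retinoid X receptor with high expression in striatum, had 0.39, -0.16, 1.15 and 1.30 on BSKO 1 to 4, against -1.13, -1.02, 0.07 and -0.07 on WT 1 to 4. Its arrays numbered 3 and 4 were above those numbered 1 and 2 in both genotypes. The Rxrg difference, BSKO minus WT, was 1.21 (limma adjusted p = 0.353) with 8 arrays and 1.48 (adjusted p = 0.0828) without BSKO 2. Rxrb (0.35), Hnf4a (0.21) and Nr2c2 (-0.38) had adjusted p values of 0.545 to 0.567 with 8 arrays. Without BSKO 2 the same probe sets gave 0.14, 0.13 and -0.14 in that order (0.495 to 0.652). The 10 measured corepressors and partners of COUP-TF or TLX had a median of -0.03 with 8 arrays and 0.02 without BSKO 2. None was called in either fit. Among them Hdac5, a histone deacetylase, differed by 0.26 (adjusted p = 0.422), Zfpm2 by -0.62 (0.466), the demethylase gene Kdm1a by -0.20 (0.569) and Bcl11a, which encodes the COUP-TF partner CTIP1, by -0.52 (0.593). Without BSKO 2 these differences were 0.28 (0.147) for Hdac5, -0.33 (0.207) for Zfpm2, -0.08 (0.575) for Kdm1a and -0.08 (0.693) for Bcl11a.

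**Figure D3:**
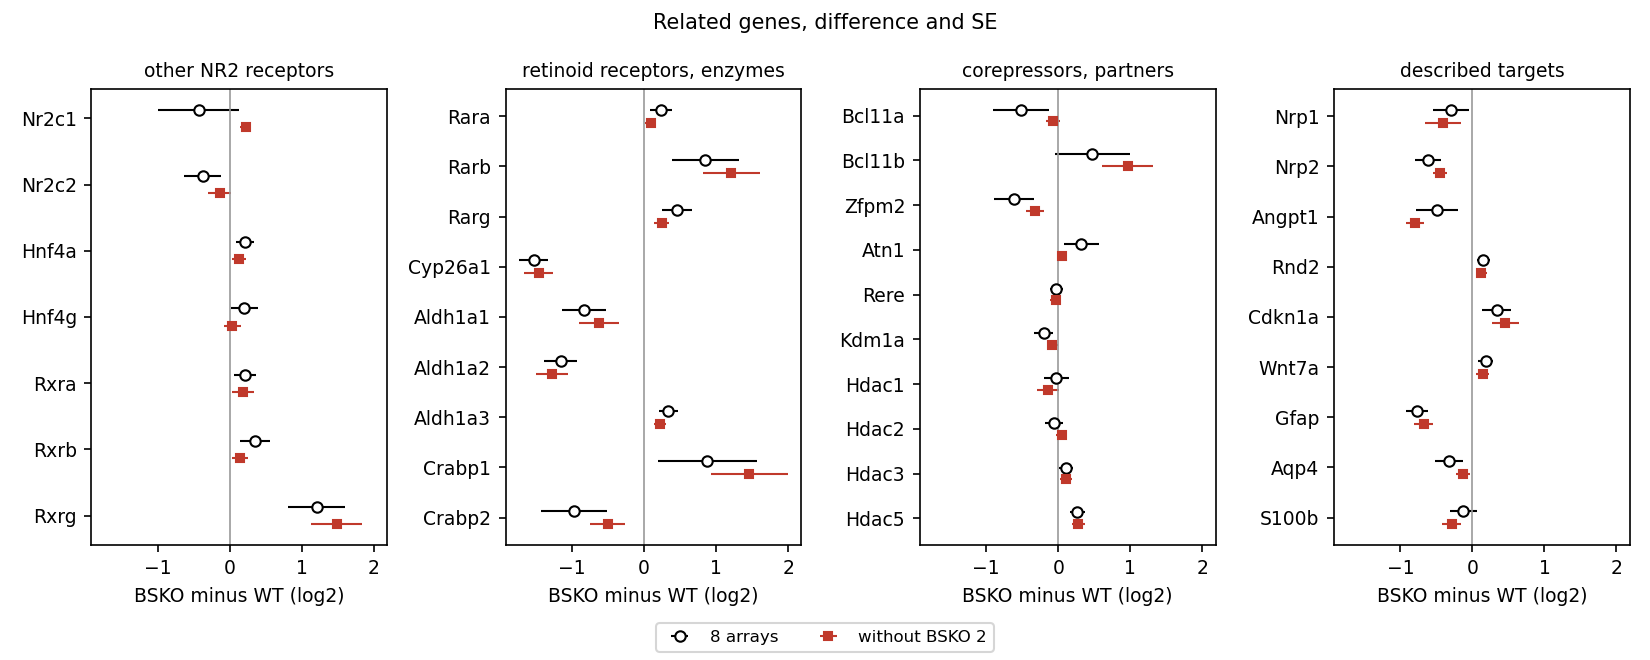
BSKO minus WT difference on the log2 scale (horizontal axis) with its SE for the 35 measured related genes in 4 lists, on the probe set with the smallest p over 8 arrays, as open circles for 8 arrays and red squares without BSKO 2. Cyp26a1 and Aldh1a2 lie farthest to the left, at -1.54 and -1.16 with 8 arrays, and Rxrg farthest to the right, at 1.21.

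Markers of brain regions and cell types also differed between these samples. Over all genes, 45.2% were lower in BSKO with 8 arrays. The 9 meningeal and fibroblast genes were all lower in BSKO by their means, with a list median of -0.51 to -0.22 on the BSKO arrays, against 0.12 to 0.69 on the WT arrays. The 5 measured dentate gyrus markers were also all lower, with -0.72 to -0.08 in BSKO and 0.08 to 0.77 in WT. The 7 measured striatal markers were all higher, with 0.06 to 1.12 in BSKO, against -1.94 to 0.01 in WT. For these 3 lists the genotypes did not overlap, and WT 1 and WT 2 lay apart from WT 3 and WT 4. The mean of the Nr2f2 probe sets had values of 0.17, 0.23, 0.38 and 0.27 on WT 1 to 4. Its relation to these lists was not tested.

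The genotypes overlapped for the other 7 marker lists. Of the 10 interneuron markers 8 were lower, with -0.31 to 0.05 in BSKO and 0.01 to 0.08 in WT. Of the 8 endothelial markers 5 were lower, with -0.24 to 0.01 in BSKO and -0.03 to 0.11 in WT. Without BSKO 2, limma called 1 interneuron marker, the serotonin receptor gene Htr3a (-0.84, adjusted p = 0.0166), and 1 meningeal gene, Ogn (-1.38, adjusted p = 0.0372, on its probe set with the smallest p), both lower in BSKO, and no gene of the other 8 marker lists. With 8 arrays no gene of the 10 lists was called.

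The 6 thalamic markers had a list median of -0.96 on BSKO 3 and -0.44 on BSKO 4, against -0.08 to 0.26 on the WT arrays, and BSKO 3 was also the lowest array for Nr2f2 and Nr2f1. On BSKO 1 the thalamic median was 0.27, above every WT array, and Nr2f2 was below every WT array. The hypothalamic list (8 measured) had -0.32 to 1.76 in BSKO and -0.50 to 0.08 in WT, and the choroid plexus list (5 measured) had -1.82 to 0.68 in BSKO and -0.14 to 0.38 in WT. Markers of neural stem cells (9) had -0.11 to 0.16 in BSKO and -0.14 to 0.05 in WT, and those of astrocytes (8) had -0.32 to 0.06 in BSKO and 0.01 to 0.09 in WT. The part of any of these lists in the Nr2f2, Nr2f1 or B130024G19Rik differences was not tested.

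**Figure D4:**
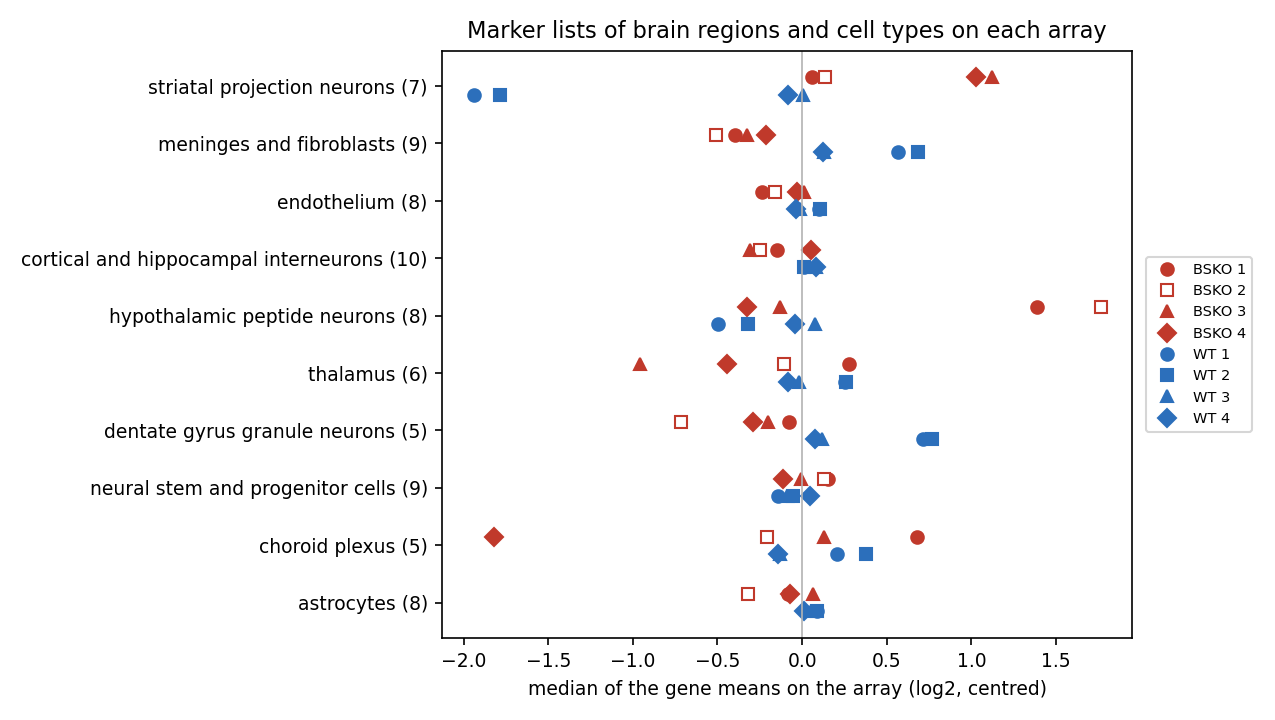
Median of the centred log2 values of each marker list on each array (horizontal axis), with BSKO in red above WT in blue, BSKO 2 open, and the number of measured genes in parentheses. The striatal, meningeal and dentate gyrus lists separate the genotypes, at 0.06 or more, -0.22 or less and -0.08 or less in BSKO, and the other 7 lists overlap.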

How the data were processed

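The deposited table holds log2 values of 22690 probe sets on 8 arrays. RMA, of a version not given in the sources used here, made these log2 values, per the submitters' processing notes, before the authors deposited them. In the values, 22689 probe sets had a median within 1e-05 of 0, so they had been centred, a step no label records. Apart from the 64 control probe sets, all were tested (22626), unfiltered. Of these, 20380 had 1 gene symbol in the platform annotation, and 20351 matched the RefSeq table (GRCm38.p6) by gene number.

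BSKO and WT were compared by a two-sided limma fit (version 3.58.1, R 4.3.3, lmFit then eBayes, no covariate). P values were adjusted by Benjamini-Hochberg across the whole table, and 0.05 was the threshold. Every SE is from this fit. Precision is limited by the number of arrays. The script was tested on simulated data with the same spread on every array, so an array like BSKO 2 was not covered. Promoter sequences are from RefSeq, and all 5 genes matched. Figures were drawn with matplotlib 3.10.9. The members, lists and alternatives were chosen with earlier results of these data known. All member probe sets are named, with up to 4 genes of each related list by smallest p, those called in either fit, the 5 most alike genes, and the 3 nearest genes on each side of Nr2f2. Htr3a and Ogn were named after their values were seen. For a related gene the values are those of its probe set with the smallest p over 8 arrays, and list medians average all probe sets of a gene first. Alternatives were quantile normalization, centring of arrays, a replicate block, a term for replicates 1 and 2 against 3 and 4, array weights, trend and robust settings, fewer probe sets, a threshold of 0.10 and leaving out each array.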

Additional observations from a re-analysis of the deposited data

Results flagged for a closer look

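The B130024G19Rik value on BSKO 2 (-0.67) lay far below the other 3 BSKO values, which were within 0.0412 of each other. The gap to the nearest of them was 0.879 of the range of the group, above Dixon's critical value for 4 arrays. Among the 14 groups of 4 values for the 7 probe sets it was the only one of its kind, and chance alone is known to give about 1 in 20 groups. BSKO 2 was the lowest BSKO array for B130024G19Rik, so leaving it out could not make the genotypes overlap.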

How the results depend on the processing

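Some settings cannot change a difference, only its SE. These are the replicate block, the term for replicates 1 and 2 against 3 and 4, trend and robust settings, and fewer probe sets. A threshold of 0.10 changes neither. Under the other alternatives, which could change the direction, all differences of the 7 probe sets kept it. The differences ranged from -1.50 to -0.93 for Nr2f2 on 1416159_at, -1.45 to -0.56 on 1416160_at and -1.19 to -0.33 on 1416158_at. They ranged from -1.22 to -0.83 for B130024G19Rik, from -0.67 to -0.17 for Nr2f1, and from 0.15 to 0.31 and 0.10 to 0.36 for Nr2f6. Calls depended far more on the setting. Probe sets called over the array were 7 with 8 arrays, 678 after quantile normalization, 84 with the term for replicates 1 and 2 against 3 and 4, 2617 with array weights (BSKO 2 weighed 0.0456), 108 with trend and robust settings, 66 at a threshold of 0.10, and 0 to 369 with 1 array left out (369 when it was BSKO 2; 2 when it was BSKO 3 or WT 1; 1 for either WT 2 or WT 3; 0 for WT 4). With the replicate block 0 were called. Same-numbered arrays of the 2 genotypes correlated at 0.0562 to 0.140 in their deviations, and differently numbered ones at -0.147 to 0.165. Not every array correlated best with its own number, so the numbers are not taken as pairs. Correlations within numbers 1 and 2, and within 3 and 4, were all positive, and those across them were all negative. The main fit has no term for that split. Member probe sets called were 0 with 8 arrays, 3 after quantile normalization, 2 with the replicate term, 5 with array weights, 2 with trend and robust settings, 2 at 0.10, and 0 to 5 with 1 array left out, the 5 being without BSKO 2. Related genes called were 0 with 8 arrays, and 4, 2, 11, 3 and 1 in the same order, and 0 to 3 with 1 array left out, the 3 being without BSKO 2. The share of all genes called is given above only for the fits with 8 arrays and without BSKO 2. Nothing is read from the counts of member probe sets or related genes under the alternatives. The causes were not tested. Centred values carry no brightness, so signal over background and dim probe sets could not be examined.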
